A study of Mus musculus with 6 samples.

Results

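Gap junction and pannexin channel genes were examined in T1 and T2 cells, a pair of tumor cell populations isolated from the same mouse mammary carcinoma. The set was chosen by gene symbol and holds 5 connexin genes (Gja1, Gjb2, Gjb5, Gjb6 and Gjc1) and 1 pannexin gene (Panx1). All 6 were found among the 24129 gene names of the deposited table. Both populations come from 4T1 cells, a BALB/c mammary carcinoma line with no hormone receptors that had been tagged with green fluorescent protein (GFP), and both had outgrown a culture of fibroblasts sorted from the tumor. T1 cells (4T1A in the sample labels) had low GFP, an adherent epithelial shape and fast growth and were aggressive in mice. T2 cells (4T1NA) had high GFP, were round and loosely attached, divided slowly and were less aggressive. Each population is represented by 3 replicates. Both were kept in DMEM/F-12 medium with serum, and T2 cells were passaged without trypsin. The series' design text calls the replicates independent, but nothing ties them to separate sorts or tumors, so the p-values measure the spread between these samples only, which may be technical.

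Connexins are membrane proteins that assemble into rings. When the rings of neighboring cells dock they form gap junctions, through which ions and small metabolites pass directly from cell to cell. Most epithelial cells make several connexins at once, and which of them are present sets which channels can form. In the mammary gland, Gja1 (Cx43) is known as the connexin of the basal layer and Gjb2 (Cx26) and Gjb6 (Cx30) as connexins of the luminal layer. Pannexins resemble connexins in their fold but act mainly as single-membrane channels that release ATP.

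The values are normalized counts, which are reads per gene divided by 1 scaling factor per library. One read was worth between 0.928 and 1.06 normalized counts, and the libraries held 18133227 to 20839686 reads on genes. The limma comparison of T1 with T2 cells used log2(normalized count + 1) over the 11514 genes whose mean reached 10 normalized counts. The thresholds on the adjusted p (0.01) and on the log2 fold change (2) are those of the study's methods, and the second was applied here in both directions. A gene beyond both is said to pass both filters. In bulk RNA, fewer cells that express a gene and less RNA of it per cell cannot be told apart.

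The 6 genes fell into those that were read in every library and those that were hardly read at all. Gja1, Gjc1 and Panx1 had enough reads to be compared. Gjb5 had a few reads in T1 cells only, Gjb2 had 1 read in the whole study and Gjb6 had none. None of the 3 genes compared passed both filters in limma, edgeR or DESeq2. Of all genes compared, 8.37% did in limma (4.17% higher in T1 cells, 4.20% lower). With a share this low, none of 3 is no departure from the background. With the adjusted p-value alone Gja1 was higher and Gjc1 lower in T1 cells, and these 2 genes were also the ones with an unadjusted p-value under 0.05. Of all genes compared, 49.5% had an adjusted p-value under 0.01 (25.1% higher and 24.4% lower in T1 cells), so 2 of 3 is close to the background. In 2 of the 3 genes the values of the groups did not overlap, as in 68.1% of all genes compared. The median log2 fold change was 0.05 over the 3 genes, beside -0.0055 over all genes compared.

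**Figure D1:**
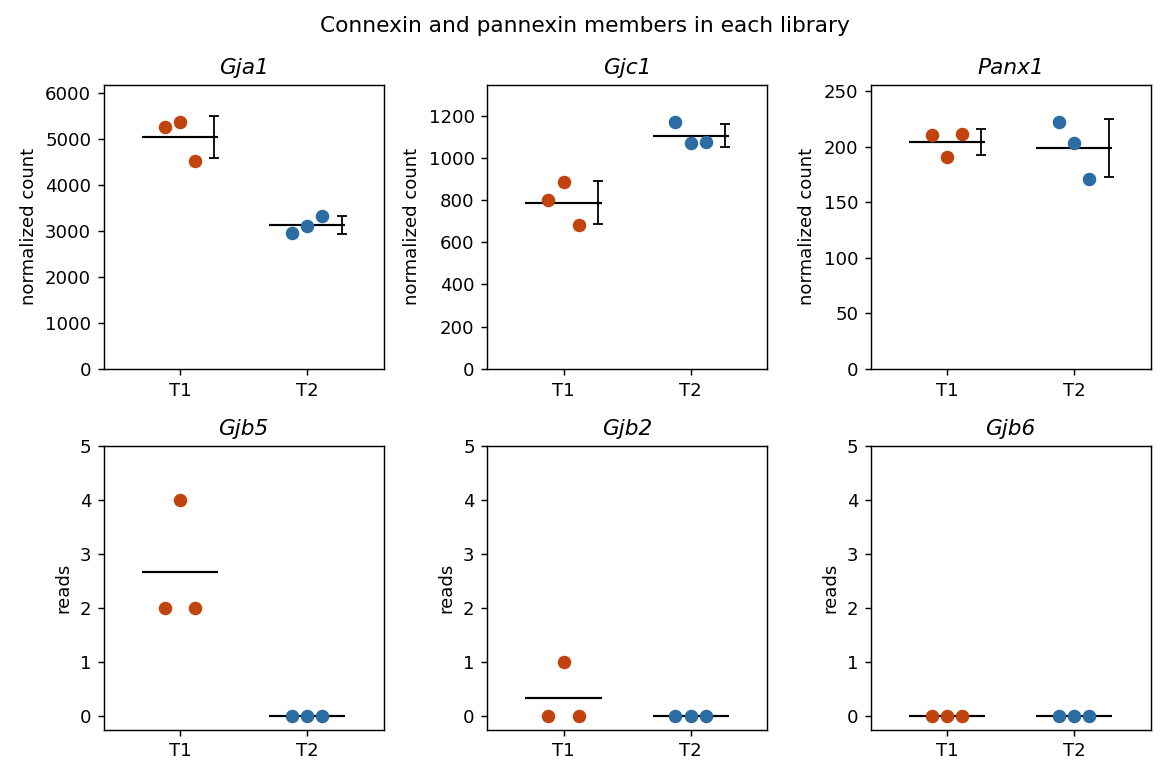
Each panel shows 1 gene, with a point for each of the 3 T1 and 3 T2 libraries and a line at the group mean; the upper panels give normalized counts with the SD as error bars, and the lower panels give reads. The groups are apart for Gja1 and Gjc1 in opposite directions, overlap for Panx1, and stay at 4 reads or fewer for Gjb5, Gjb2 and Gjb6.

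Gja1 encodes Cx43, the most widely expressed connexin and the one that most cultured cells use for gap junctions. Its 8 annotated transcripts span 56377330 to 56402513 of chromosome 10 (mm10, plus strand). Its normalized count was 5244, 5361 and 4516 in T1 replicates 1, 2 and 3, and 2943, 3094 and 3327 in T2 replicates 1, 2 and 3. The T1 values all exceeded the T2 values, and Gja1 was abundant in both populations, with only 8.42% of the genes compared at a higher mean. T1 cells averaged 5040 ± 458 and T2 cells 3122 ± 193 (SD, n = 3 each), which differ 1.61-fold. The log2 fold change was 0.69 (standard error 0.09, 95% interval 0.49 to 0.88, limma), and the adjusted p was 6.58e-05 (limma, Benjamini-Hochberg). The difference exceeded the replicate spread but stayed below the fold filter, and 33.8% of the genes compared had a larger change in either direction.

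Gjc1 encodes Cx45, a connexin known from conducting heart tissue and smooth muscle that can form mixed channels with Cx43. It lies on chromosome 11 from 102799579 to 102819700 on the minus strand. The T1 libraries had 801, 884 and 680 normalized counts of Gjc1 and the T2 libraries 1170, 1070 and 1077. Here every T2 library was above every T1 library, the opposite order to Gja1. T1 cells averaged 788 ± 102 and T2 cells 1106 ± 55.8 (SD, n = 3 each), 1.40 times as high in T2 cells. Its log2 fold change was -0.49 (standard error 0.11, 95% interval -0.74 to -0.25, limma), with an adjusted p of 0.00267 (limma, Benjamini-Hochberg). This call was not stable at the threshold of 0.01. Without T2 replicate 1, the T2 library with the most Gjc1, the log2 fold change was -0.45 and the adjusted p-value 0.0164 in limma, and without the variance trend of limma the adjusted p-value was 0.0105.

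Gja1 and Gjc1 are also given as a ratio within each library, which no scaling between libraries can change. Per kilobase of merged exons, the level of Gja1 was 3.19, 2.96 and 3.24 times that of Gjc1 in the T1 libraries and 1.23, 1.41 and 1.51 times in the T2 libraries. The ratio averaged 3.13 ± 0.15 in T1 and 1.38 ± 0.142 in T2 libraries (SD, n = 3 each). That the T1 ratios all lie above the T2 ratios follows from the opposite orders of the 2 genes given above, so the ratio is a description of their size and was not tested. With the length of the longest transcript in place of merged exons the averages were 5.63 and 2.49, again higher in T1 cells.

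Panx1 encodes the most widely expressed pannexin, a channel protein that releases ATP. It lies on chromosome 9 from 15002128 to 15045478 on the minus strand. Its normalized count was 211, 191 and 212 in the T1 libraries and 222, 204 and 171 in the T2 libraries. The groups overlapped, and the highest and the lowest value were both T2 libraries. T1 cells averaged 204 ± 11.9 and T2 cells 199 ± 26.1 (SD, n = 3 each). The log2 fold change was 0.05 (standard error 0.15, limma), with an adjusted p of 0.806 (limma, Benjamini-Hochberg). Its 95% interval ran from -0.29 to 0.38, which bounds the level in T1 cells between 0.821 and 1.30 times that in T2 cells. Differences within this range are compatible with these replicates, and the smallest detectable difference was not computed.

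**Figure D2:**
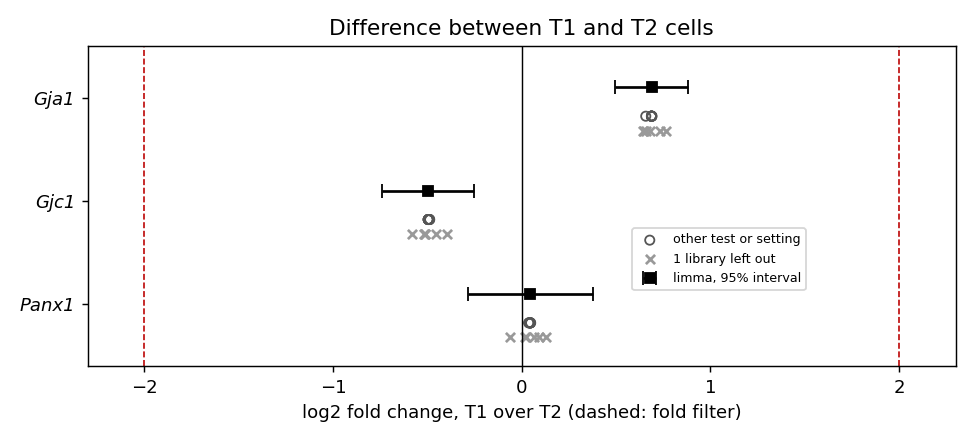
Log2 fold change of T1 over T2 cells for Gja1, Gjc1 and Panx1; squares and bars are the limma estimate with its 95% interval, open circles the other tests and settings, crosses the fits with 1 library left out, and dashed lines the fold filter at 2 in either direction. Gja1 stays above 0 and Gjc1 below 0 in every fit shown, Panx1 straddles 0, and none comes near the fold filter.

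The other 3 genes were near or at the limit of detection. Gjb5 encodes Cx31.1, a connexin of stratified epithelia such as the epidermis. Its T1 libraries held 2, 4 and 2 reads and its T2 libraries 0 reads each, and a count of 0 allows up to 3 reads. The T1 mean was 2.60 ± 0.977 normalized counts (SD, n = 3), which is less than 3 reads are worth in a T2 library (2.93 on average), so no fold change is given. Gjb2 had 1 read in T1 replicate 2 and none in the other 5 libraries. Gjb6 had no read in any of the 6 libraries. For Gjb6, 3 reads correspond to 1.04 to 1.19 normalized counts per kilobase in a library, and the level of Gja1 per kilobase was at least 261 times that in every library. For Gjb2 the same margin was at least 235. These limits cover counting error only.

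The promoters of Gja1 and Gjb2 are shown because these were the most abundant and a nearly unread gene of the set. Each sequence is the 250 bases before the RefSeq start of the gene, in build GRCm38.p6, written from 5′ to 3′ on the strand of the gene. Capitals mark the AP-1 motif TGANTCA and the GC box GGGCGG, each searched on both strands.
Gja1, chr10:56377050-56377299, plus strand: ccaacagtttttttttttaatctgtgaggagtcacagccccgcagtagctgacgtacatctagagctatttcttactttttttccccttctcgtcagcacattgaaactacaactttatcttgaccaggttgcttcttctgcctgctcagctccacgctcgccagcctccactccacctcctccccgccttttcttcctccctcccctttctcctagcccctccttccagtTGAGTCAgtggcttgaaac
Gjb2, chr14:57104703-57104952, minus strand: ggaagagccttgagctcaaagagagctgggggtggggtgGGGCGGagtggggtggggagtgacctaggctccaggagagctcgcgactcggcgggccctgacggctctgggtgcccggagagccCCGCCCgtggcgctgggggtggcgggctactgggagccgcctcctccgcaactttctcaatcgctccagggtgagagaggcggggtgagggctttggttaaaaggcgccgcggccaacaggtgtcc

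The window of Gja1 held 1 AP-1 motif, which began 19 bases before the start, and 6.73% of 32536 RefSeq promoter windows of that length held at least 1. The window of Gjb2 held 2 GC boxes, 211 and 126 bases before the start, and 33.0% of windows held at least 1. It also held 18 CpG dinucleotides, more than 78.2% of windows, while that of Gja1 held 6, which is the median. Panx1, read in every library, had 17 CpG and no GC box, and the hardly read Gjb5 and Gjb6 had 3 and 5. RefSeq windows were found for 5 of the 6 genes, with none for Gjc1. A match of letters is a description and not a binding site.

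Gjb2 and Gjb6 sit in a cluster of connexin genes. Gjb2 (chromosome 14, 57098600 to 57104702) and Gjb6 (57123303 to 57133611) are neighbors on the minus strand of mm10, 18600 bases apart, with Gja3 on the other side of Gjb2. Gja3, a lens connexin, had no read in any library either. The genes around this cluster were read in both populations. Zmym2 averaged 1294 normalized counts in T1 and 1214 in T2 libraries, and Cryl1 had 128 and 141, with no difference at an adjusted p-value under 0.01 in limma for either. The low values of this stretch were those of its 3 connexin genes.

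Gjb5 lies on chromosome 4 from 127354809 to 127358181 on the minus strand, with 1 annotated transcript. Beside it, 15 further connexin and pannexin genes were looked at, of which 6 had no read and 9 had too few to be compared. Like Gjb5, Gja4 (Cx37), a connexin of blood vessels that is named after its values were seen, was read in T1 cells only. It had 30 reads over the T1 libraries and 0 over the T2 libraries, at least 3.33-fold higher in T1 cells when 3 reads are allowed for each library at 0.

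**Figure D3:**
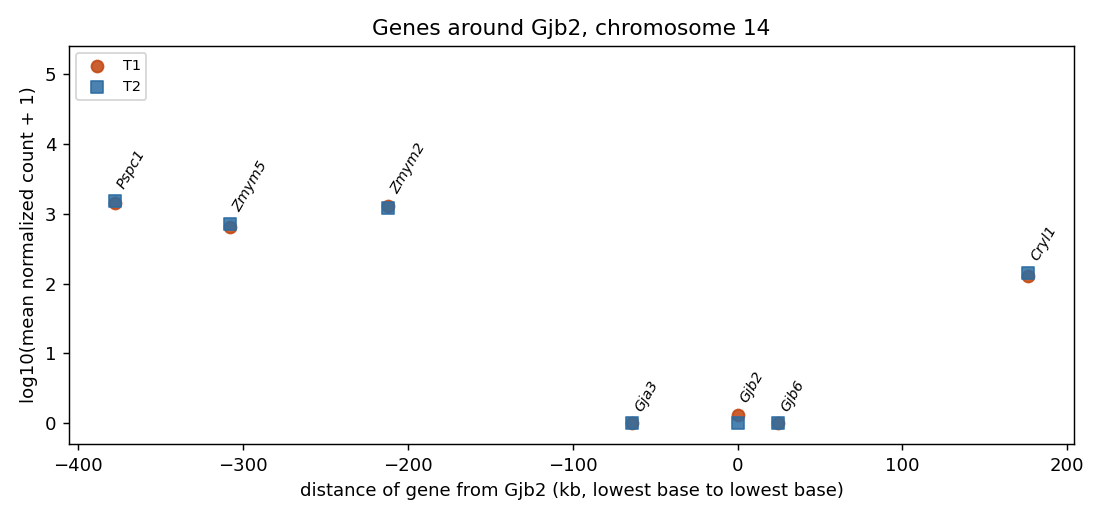
Mean level of each annotated protein-coding gene of the table in the stretch around Gjb2, as log10(mean normalized count + 1) in T1 (circles) and T2 cells (squares), against the distance of the gene from Gjb2 in kilobases. The 3 connexin genes Gja3, Gjb2 and Gjb6 lie at or near 0 between neighbors that are read at like levels in T1 and T2 cells.

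To compare levels between the genes of the set, normalized counts were divided by the length of the merged exons in kilobases. In T1 cells the order was Gja1 (491), Gjc1 (158), Panx1 (33.9), Gjb5 (1.51) and Gjb2 (0.129), with 1 read behind the last value. In T2 cells it was Gja1 (304), Gjc1 (221) and Panx1 (33.0). The values of neighbors in either order did not overlap between the 3 libraries. Gja1 thus stood above Gjc1 in both populations, by a wider margin in T1 cells. The order of Gjb5 and Gjb2 is not resolved, because a count of 0 allows up to 3 reads. For Gjb2 in T1 replicate 1 that is 1.32 per kilobase, within the range of Gjb5 in T1 libraries (1.13 to 2.16). The merged exons of Gja1 (10257 bases) are much longer than its longest transcript (3889 bases), and with the longest transcript Gja1 reached 1296 per kilobase in T1 and 803 in T2 cells.

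Summed over the 5 connexins of the set, the level per kilobase was 673, 702 and 577 in the T1 libraries and 521, 516 and 540 in the T2 libraries. The average of 651 ± 65.0 in T1 was 1.24 times that of 525 ± 12.7 in T2 libraries (SD, n = 3 each), and the groups did not overlap (two-sided exact permutation test, p = 0.1, the smallest that 3 against 3 allow). Gja1 made up 75.6% ± 0.967 of this sum in T1 and 57.9% ± 2.56 in T2 libraries (SD, n = 3 each). Gjc1 made up 24.2% ± 0.868 and 42.1% ± 2.56. As the sum is almost wholly Gja1 and Gjc1, their shares add up to nearly 100% and restate the ratio between them, so they are given with no test. Gjb5 contributed 0.229% in T1 cells and Gjb2 0.018%. With the longest transcript the share of Gja1 was 84.8% in T1 and 71.2% in T2 libraries. These shares are of the set alone and not of all connexins of the cells.

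**Figure D4:**
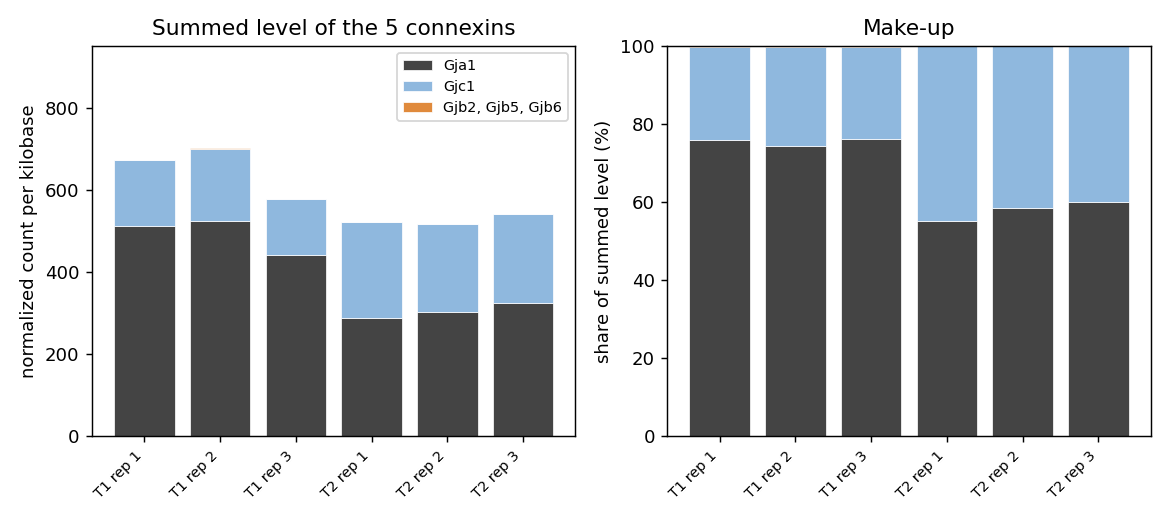
Normalized counts per kilobase of merged exons summed over the 5 connexins of the set in each library (left) and the share of each in that sum in percent (right). T1 libraries reach 577 to 702 and T2 libraries 516 to 540, and the part of Gjc1 is larger in every T2 library than in any T1 library.

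Genes that act with connexins and pannexins were described from 3 lists. Of 18 genes for proteins that bind, move or phosphorylate connexins, 17 had enough reads, of which 3 were higher and 7 lower in T1 cells by an adjusted p below 0.01 in limma, beside 25.1% higher and 24.4% lower among all genes compared, and the median log2 fold change was -0.18. With 49.5% of all genes past this threshold, 10 of 17 is near the background. Past both filters were 1 gene higher and 2 lower of the 17, beside 4.17% higher and 4.20% lower among all genes compared. The difference between these shares was not tested. Cdh1, which encodes E-cadherin and holds cells together so that gap junctions can form, had a log2 fold change of 4.98. Nov, a secreted protein that binds Cx43, had 4.93 ± 1.67 normalized counts in T1 and 272 ± 56.4 in T2 cells (SD, n = 3 each). Cav1, the coat protein of caveolae, had a log2 fold change of -3.35, which rested partly on T1 replicate 2, with 6.51 normalized counts against 50.8 and 37.1 in the other T1 libraries. Without that library it was -2.50, still past both filters. Tjp1, which encodes ZO-1, the scaffold that binds the tail of Cx43 at the edge of gap junctions, is named after its values were seen. It had 5654 ± 466 and 3008 ± 187 normalized counts (SD, n = 3 each) and a log2 difference of 0.91 (adjusted p = 6.84e-06, limma), so that it was higher in T1 cells along with Gja1.

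Of 24 genes for ATP and adenosine receptors and for enzymes that break down ATP outside the cell, among others, 7 had enough reads. By an adjusted p below 0.01 in limma T1 cells had more of 4 and less of 1, which is 5 of 7 beside 49.5% of all genes compared. Past both filters were 4 of the 7, beside 8.37% of all genes compared, a difference in share that was not tested. Entpd3, P2ry12 and Nt5e were the 3 higher in T1 cells and P2rx2 the 1 lower. Entpd3, an enzyme that degrades extracellular ATP, averaged 211 ± 27.8 normalized counts in T1 libraries (SD, n = 3) and 3.62 in T2 libraries. P2ry12, a receptor for ADP, had 101 ± 19.8 and 7.57 ± 2.81. Nt5e, which makes adenosine from AMP, had a log2 fold change of 2.05, but 1.77 without T1 replicate 3 and 1.71 without T2 replicate 1, which is below the fold filter. P2rx2, an ATP-gated channel, had -2.42, and -1.81 with a pseudocount of 5, again below the filter. P2rx7, the ATP receptor most often paired with Panx1 and named after its values were seen, had 6 reads over the T1 and 8 over the T2 libraries. Panx1 itself differed by 0.05 on the log2 scale beside these larger differences.

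Of 11 genes of other large-pore channels, 6 were compared, with a median log2 fold change of -0.02. Lrrc8e, a subunit of the volume-regulated anion channel, was higher in T1 cells and passed both filters, with 83 reads over the T1 and 5 over the T2 libraries. It was the only 1 of the 6 to do so, beside 8.37% of all genes compared. Its fitted log2 fold change depends on the pseudocount, with 3.35 at a pseudocount of 1 and 2.21 at 5. Calhm3 was not analysed here.

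**Figure D5:**
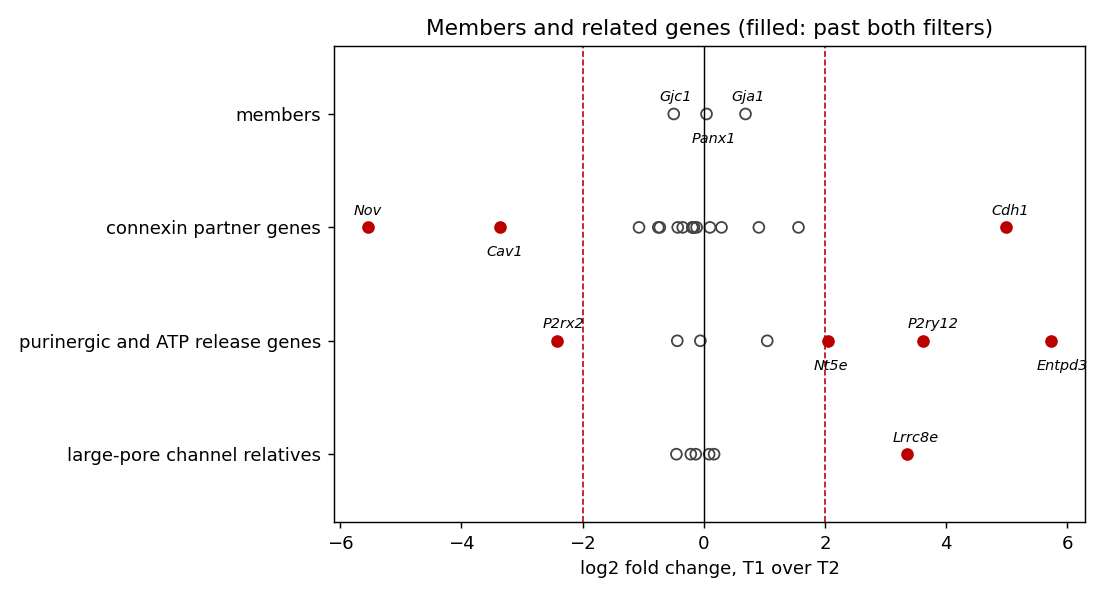
Log2 fold change of T1 over T2 cells in limma for the genes of the set and of the related lists that had enough reads; filled points passed both filters and dashed lines mark the fold filter. Gja1, Gjc1 and Panx1 lie within 1 of 0 and inside the fold filter, while Cdh1 stands at 4.98 and Nov at -5.54.

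The genes most like each compared gene were found by the root mean square difference of log2(normalized count + 1) over the 6 libraries after centering each gene. They were Agps, Dnaja2 and Heatr3 for Gja1 (0.029 to 0.036), Reep3, Hmgn2 and Smim11 for Gjc1 (0.051 to 0.055) and Cox7c, Kri1 and Tysnd1 for Panx1 (0.041 to 0.043).

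Markers of other cell types were read beside these values. Of 7 fibroblast markers, Col1a1 and Pdgfra were compared. Pdgfra was at 191 to 206 normalized counts in the T1 and 996 to 1295 in the T2 libraries, Col1a1 at 69 reads over the T1 and 1 over the T2 libraries, and Col3a1, Lum and Pdgfrb were at 0. Col1a2 had 23 and 0 reads and Dcn 5 and 0 over the T1 and T2 libraries. The list therefore had no common direction, since its summed level (225 to 241 in the T1 and 997 to 1295 in the T2 libraries) is nearly all Pdgfra, while the other 3 members with reads had more in T1 cells. None of 7 endothelial markers, which include Gja4, and none of 7 leukocyte markers was compared, and no value of either list was above 12.1 normalized counts. Of 4 epithelial markers, Epcam and Cdh1 were higher in T1 cells and Krt8 and Krt18 did not pass an adjusted p-value of 0.01 in limma, with a summed level of 60167 to 66104 in the T1 and 37472 to 43407 in the T2 libraries. The part of these markers in the values of the connexins was not tested.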

How the data were processed

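RNA sequencing of 3 T1 and 3 T2 samples was analysed. The authors used Trimmomatic for adapter removal, TopHat2 for alignment (mm10) and HTSeq for counts per gene, and divided each library by a DESeq2 size factor. The deposited signal is that normalized count. Annotation, strand setting and versions are not given in the sources used here. Whole reads (within 0.05 of a read) were recovered for 100% of values. Replicates differed by more than sampling noise, with chi-square values of 7.96 to 25.0 for each degree of freedom.

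The fit used limma 3.58.1 (R 4.3.3) with a variance trend, a mean of at least 10 normalized counts and Benjamini-Hochberg adjustment over 11514 genes. The edgeR 4.0.16 quasi-likelihood test and DESeq2 1.42.0 were run on recovered reads as alternatives, which called 974 genes each against 964 in limma, 956 of them shared in each case. These 3 fits were tested on simulated data. Positions and lengths came from GENCODE M21 (GRCm38) and promoters from RefSeq (GRCm38.p6). Exact permutation tests used scipy 1.17.1, and figures matplotlib 3.10.9.

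Genes named by rule were the set itself, list genes past both filters, genes bordering the set (for Gjb5 none is given) and the 3 genes most like each. Cell type markers were named from their own lists. The rule also took other connexins and pannexins with enough reads, but none had them. Gja4, Tjp1 and P2rx7 were added after their values were seen, and Calhm3 was named as not analysed. Some genes of the lists are not reported here, so levels were summed over the connexins of the set rather than over all connexins. The set and the lists were chosen with earlier results of these data known. No column was left out (0 unused).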

Additional observations from a re-analysis of the deposited data

How the results depend on the processing

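Limma was refitted with pseudocounts of 0.5 and 5, no filter on low counts or a stricter minimum mean of 50, quantile normalization, no variance trend, wider filters, the replicate block and each library left out, and replaced by edgeR and DESeq2. Among 15 refits, the direction and the side of the threshold were kept in 15 for Gja1, 13 for Gjc1 and 14 for Panx1. Gja1 had a log2 fold change of 0.64 to 0.77 when each library was left out. That of Gjc1 was -0.58 to -0.39. The adjusted p-value of Gjc1 rose above 0.01 without T2 replicate 1 (-0.45) and without the variance trend (-0.49, adjusted p = 0.0105 in limma). Panx1 was between -0.060 and 0.13, turning negative without T2 replicate 3 (-0.060). Without the filter on low counts Gjb5 had a log2 fold change of 1.81 (adjusted p = 0.00318 in limma), which rests on 8 reads and the pseudocount. Over all settings the number past both filters ran from 3 to 6 for the ATP-related genes (4 in the main fit). It ran from 3 to 5 for the partner genes and from 659 to 2445 for all genes. The ATP-related count moved where Nt5e or P2rx2 crossed the fold filter, where low genes entered the test and with the wider filters. It also moved at a mean of at least 50, where P2rx2 was no longer tested. The wider filters gave 5 connexin partner genes in place of 3 and 2445 genes in all in place of 964. A mean of at least 50 left 0 large-pore channel genes, because Lrrc8e was no longer tested. Without a filter on low counts 1 of the 15 further connexins and pannexins passed both filters, against 0 with it. With the longest transcript the summed level differed by 402 per kilobase, against 125 with merged exons, and the share of Gja1 by 13.6 percentage points against 17.7. With libraries left out these were 99.6 to 162 and 16.3 to 18.8.

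Whether the replicate numbers pair the samples was not settled, and the main fit left them unpaired. The deviations of same-numbered samples correlated at 0.057, 0.172 and 0.104. Those of unlike-numbered samples correlated at -0.152 to 0.072. For each T1 replicate the same-numbered T2 sample had the highest value, though all were low. With the replicate block Gja1 kept its log2 fold change of 0.69 (adjusted p = 0.00013 in limma), and no call of the set changed. Depth limits Gjb2, Gjb5 and Gjb6, for which a library with 0 reads allows up to 3.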

Other observations

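Values of the genes nearest to Gja1, Gjc1 and Panx1 are given here. Tbc1d32, 148640 bases from Gja1, had a log2 fold change of -0.25 (adjusted p = 0.27, limma), beside 0.69 for Gja1. Hsf2 on the other side, much farther away at 1083871 bases, had 0.17 (adjusted p = 0.291, limma). Adam11, 19316 bases from Gjc1, had -0.67 with an adjusted p-value of 0.0538 in limma, in the direction of Gjc1 but not past 0.01, and Higd1b on its other side had 1 read in all. Hephl1 and Izumo1r, on either side of Panx1, had no read in any library.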
